A study of Drosophila melanogaster with 2 samples.

Results

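A set of 31 genes that lay out the segments and body axes of the Drosophila embryo was examined in a map of where the chromatin protein Pita sits. The genes were listed by name and looked up in the Ensembl gene models of the fly, where all 31 were found among 13968 protein-coding genes. They are 6 gap genes, 8 pair-rule genes, 5 segment polarity genes, 7 maternal and dorsoventral axis genes and 5 genes of the head and trunk. For each gene, Pita binding was counted at its transcription start sites (TSSs) and inside the gene, and the nearest binding on each side was measured.

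The data came from chromatin immunoprecipitation with sequencing on whole Drosophila melanogaster embryos of mixed sex, collected from 0 to 24 hours of age. All embryos came from a transgenic line that carries Pita with GFP fused to its C-terminal end. Chromatin was sonicated to 200 to 800 bp and, per the description, precipitated through the GFP tag, although the antibody field of the labels names pita. There is 1 group, of 2 libraries labelled biological replicates 1 and 3, and no other genotype or treatment to set it against. The experiment that the labels name as a possible control was not analysed here. The labels do not say how far the replicates were raised apart, so the spread between them may be technical. Whole embryos of all these ages pool every cell type, so a signal says nothing of the cells or hours in which a patterning gene was on or off.

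In the fly embryo, products laid down by the mother switch on gap genes in broad domains. Gap proteins set the stripes of the pair-rule genes, and pair-rule proteins set the segment polarity genes that mark each segment's borders. Most of these genes are driven by many separate enhancers, often lying well outside the gene. Pita belongs to the zinc-finger architectural proteins, which bind insulators and promoters and are known to keep the enhancers of one domain from the genes of the next.

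The values are the peak lists as the authors deposited them on the dm6 assembly. A reproducible summit means one that the authors kept in their optimal list, cut by irreproducible discovery rate (IDR), which holds 1338 summits with signals between 143.9 and 4711. A candidate means any of the 30000 summits called on the pooled libraries, which were deposited as peaks and background and reach down to a signal of 26.3. The signal is each peak's own deposited value, without an error, and ranks were taken within 1 list. The lists hold no read counts, so read depth is unknown, and every count below is a description with no test.

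Reproducible Pita at the genes themselves came down to 1 gene, cnc, a count near the background. At a distance of up to 500 bp from a TSS, 1 of the 31 had a reproducible summit (3.23%), while 5.68% of all protein-coding genes did. The same gene had a reproducible summit inside it (3.23%), against 2.56% of all protein-coding genes, so both shares rest on a single gene. cnc encodes a basic leucine zipper factor needed for the labral and mandibular parts of the head. The summit lay at position 23214928 of chromosome arm 3R, in an intron of cnc and 371 bp from 1 of its 10 annotated TSSs. A window of 200 bp thus left 0 of the 31 genes. No share of all genes was taken at that window, so this 0 cannot be placed against the background. The signal of the summit in the pooled libraries was 2009, at rank 102 of 1338. The signal was 941 in replicate 1 and 1051 in replicate 3, at rank 102 and rank 113 of their own lists. The libraries thus placed this summit alike, which its choice from a list derived from both makes likely in advance. Of the 19 candidates inside the gene, the next strongest had a signal of 52.7.

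The sequence under this summit is shown because it is the only reproducible Pita summit within any of the 31 genes. It is the plus strand of dm6 at chr3R:23214878-23214978, from RefSeq, and the summit is its middle base. Capitals mark a 19 bp match, read on the minus strand, to the sequence shared by other reproducible summits that is described next.
cnc: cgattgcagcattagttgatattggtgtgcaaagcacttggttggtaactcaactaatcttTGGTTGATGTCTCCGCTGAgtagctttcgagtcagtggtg

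The shared sequence was learned as a 19 bp matrix from 1037 reproducible summits, none of which was a nearest summit of a patterning gene or lay within 20 kb of one. Learning started from CTCAAACC, and 663 of those summits (63.9%) held a match within 50 bp, over a score that 5% of the windows flanking them also exceed. The best kept bases of the matrix were C at position 17 (98.8% of its sites) and C at position 18 (97.1%). Position 3 was A in 94.9%, and position 16 was A in 87.6%. A match describes these letters and was not tested as a site that Pita holds.

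Among the 31 genes no other had a reproducible summit inside it, and 7 more had one outside but within 10 kb. The windows of 5 more genes, gt, cad, osk, btd and sog, are shown, each for a summit within 10 kb. They were chosen after their values were seen. For osk the nearer but weaker summit is shown, and for btd the stronger but farther one. eve and ptc also had a summit within 10 kb but are not shown, so these windows are no measure of how common a match is. All windows are the plus strand of dm6 from RefSeq, with 50 bases on each side of the summit. The 19 bp match is in capitals, and all these matches read on the minus strand. They lie at chrX:2419646-2419746 for gt, chr2L:20787503-20787603 for cad and chr3R:8938598-8938698 for osk. The window of btd is chrX:9687900-9688000 and that of sog chrX:15594659-15594759. The window of sog held no match and so has no capitals.
gt: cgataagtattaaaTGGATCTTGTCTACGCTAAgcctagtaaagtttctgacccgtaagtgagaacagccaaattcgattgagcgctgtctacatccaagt
cad: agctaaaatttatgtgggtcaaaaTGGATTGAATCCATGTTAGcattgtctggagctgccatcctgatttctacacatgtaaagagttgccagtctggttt
osk: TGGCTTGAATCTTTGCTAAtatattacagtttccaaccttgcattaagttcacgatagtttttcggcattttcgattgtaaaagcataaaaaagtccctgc
btd: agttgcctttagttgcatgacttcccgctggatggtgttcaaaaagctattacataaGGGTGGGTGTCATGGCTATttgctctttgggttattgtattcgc
sog: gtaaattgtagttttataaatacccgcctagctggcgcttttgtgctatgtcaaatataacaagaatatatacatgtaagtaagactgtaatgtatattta

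Read along the strand of the match, the sites at patterning genes varied in the middle, and the 8 printed here all kept the pair of C bases near the end. The match at the strongest such summit of 8 genes is given to show this, with a base in capitals where it is the commonest at that position of the matrix. A match was called by its score on that matrix, where these C bases are the best kept. The kept pair and the varied middle thus follow largely from that score. Each match is named by the patterning gene it flanks or, for cnc, lies in. Over all 29 matches at summits of patterning genes, 10 to 15 of the 19 bases were the commonest, with a median of 13.
tll: cgAGCggAGACggcAACCA
oc: gTAGtCAtGACACAAACCg
opa: TTAGCgAAGgCACcctCCt
cad: cTAaCatgGAttCAAtCCA
gt: TTAGCgAgtgCACctACCA
wg: TTAGCacAGACAatAACCA
hb: TcAcCCgtGtCtCgAACCc
cnc: TcAGCggAGACAtcAACCA

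The nearest reproducible summits on both sides, with the one inside cnc, came to 59 distinct summits, since en and inv share theirs and so do slp1 and slp2. Of these, 29 held the match within 50 bp (49.2%), against 689 of the other 1279 reproducible summits (53.9%). The matrix was learned on 1037 of those others and on none of the 59, so the shares were not measured alike and no difference is read from them. Their median signal was 544.3, against 488.9 for the others, and 64.4% lay within 500 bp of an annotated TSS, against 60.6%. Of these 38 promoter summits, only the one in cnc was at a patterning gene, and all others were at other genes, the farthest of them 395323 bp from kni.

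Some reproducible summits are shoulders, lying within 300 bp of a stronger one. They made up 9 of the 59 (15.3%), against 18.5% of the others. Without shoulders, 29 of 50 summits held the match (58.0%), against 64.1% of the others, nearly all of which the matrix was learned on.

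Of the 59 summits, 58 had a summit within 100 bp in the lists of both replicates, as had 1233 of the other 1279. The reproducible list was derived from both replicates, so this agreement was largely set in advance. At the 58 summits, the log2 ratio of replicate 3 to replicate 1 had a median of 0.26 and ran between -0.85 and 2.36. The median over the other reproducible summits was also 0.26. The exception was the nearest summit left of nos, a shoulder with 357 in replicate 3 and no match in replicate 1. The widest ratio belonged to a shoulder left of btd, described further on.

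**Figure D1:**
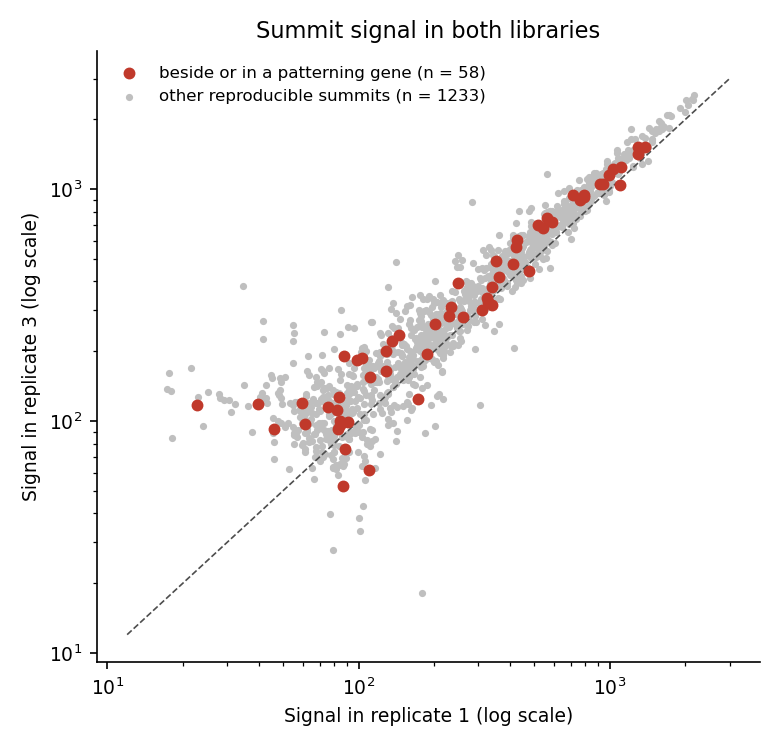
Signal of each reproducible summit in replicate 1 (horizontal) and replicate 3 (vertical), both on log scales, for the 58 summits beside or in a patterning gene that were found in both libraries and for 1233 other summits; the dashed line marks equal values. The summits of patterning genes lie in the cloud of the others, and the point far left is the shoulder beside btd, with 22.7 in replicate 1 and 117 in replicate 3.

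The 31 genes differed widely in how near a reproducible summit came. Counting cnc, 8 of the 31 had one inside or within 10 kb (25.8%), against 25.3% of all protein-coding genes, so this share was at the background. The median distance to the nearest summit was 23675 bp, against 32071 bp over 13945 protein-coding genes. The stretch between the nearest summits on either side, called the interval here, had a median of 146440 bp, against 198526 bp over 13790 genes. Quartiles of the interval were 69572 and 297888 bp for the patterning genes, against 101736 and 328117 bp, so the ranges overlapped widely.

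**Figure D2:**
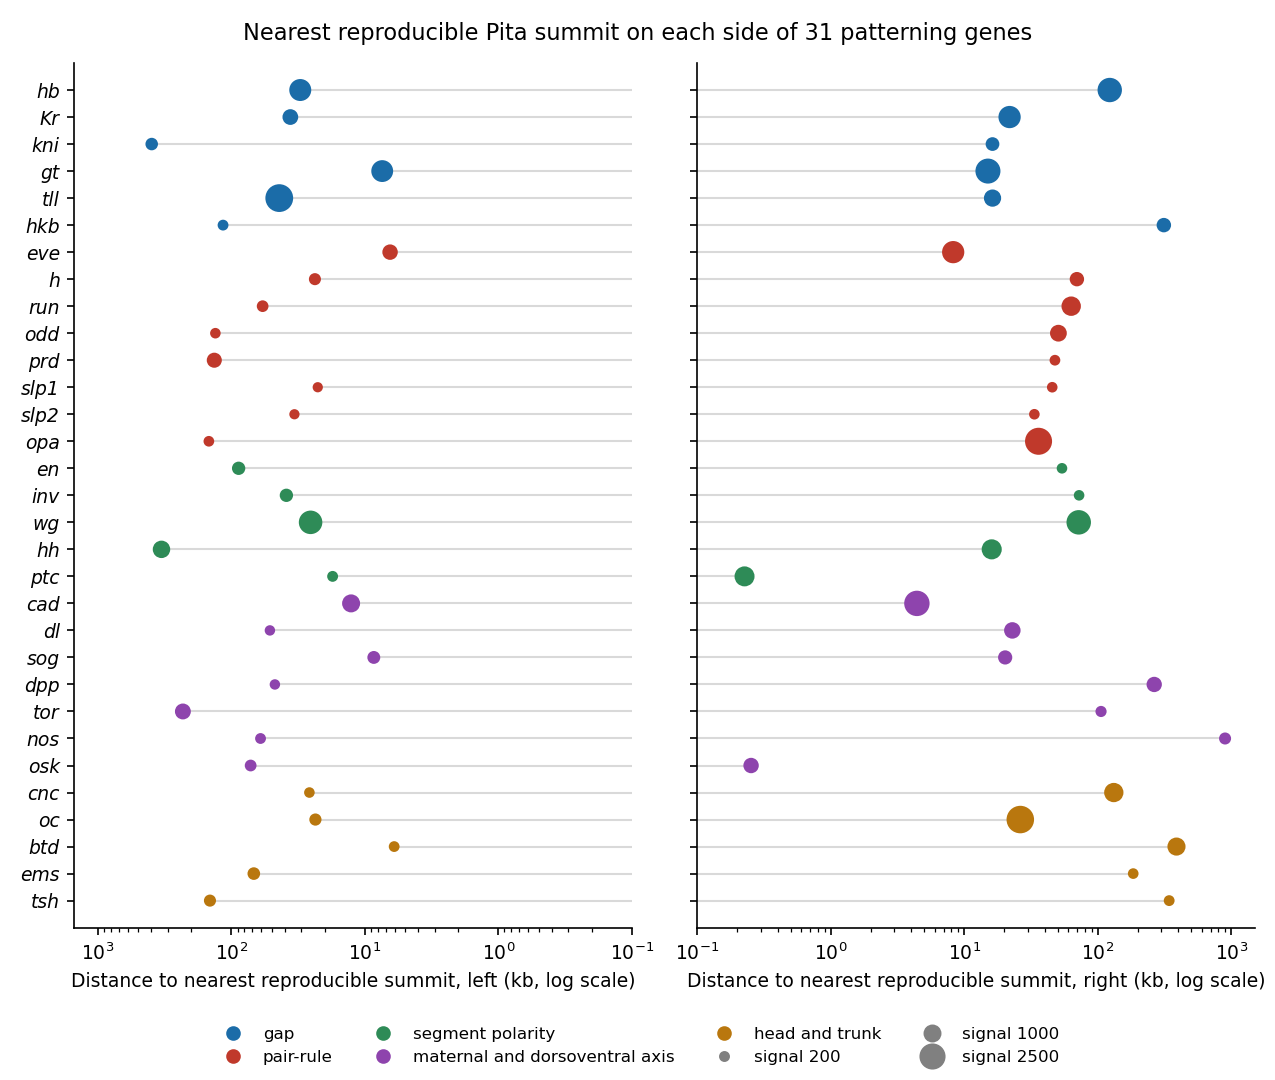
Distance in kb, on log scales, from each of the 31 genes to the nearest reproducible summit on its left and on its right along the chromosome; the size of a point is the signal and the colour is the role. Only ptc and osk have a summit within 1 kb of the gene's end, at 226 and 253 bp, and gt, eve, ptc and cad have summits within 20 kb on both sides.

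**Figure D3:**
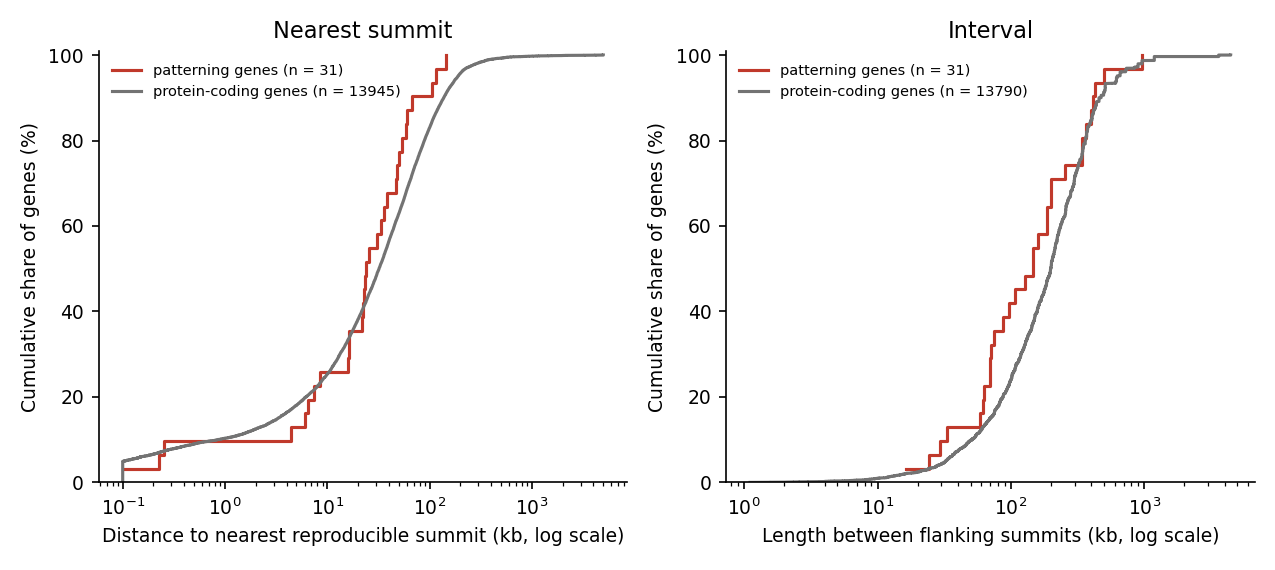
Cumulative share of genes (%) by the distance to the nearest reproducible summit (left) and by the length of the interval (right), in kb on log scales, for the 31 patterning genes and for all protein-coding genes; distances under 0.1 kb are drawn at 0.1 kb. The medians are 23675 bp for patterning genes and 32071 bp for all genes on the left, and 146440 and 198526 bp on the right.

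Close flanks on both sides, and a gene alone between its flanks, were counted next. A reproducible summit within 20 kb on both sides was found for 4 of the 31 genes (12.9%), against 4.96% of protein-coding genes. The 4 were gt, eve, ptc and cad. In a like count, 4 were the only protein-coding gene wholly inside their interval (12.9%), against 0.906% of genes, and these were eve, ptc, osk and oc. Both counts were chosen after values were seen, and 4 genes are few. Few other coding genes started near the start of a patterning gene. The median number of other coding genes starting within 20 kb of the gene's own start was 1, against 7 for all protein-coding genes. By that measure 9 of the 31 had none, against 3.34% of all genes. In a long gene, part of that stretch lies inside the gene itself, and a gene counted as having none can still have a near neighbour, as en and inv do. The part of this spacing in both counts was not tested.

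The gap genes encode transcription factors that act in broad domains. None of the 6 had a reproducible summit at a TSS or inside, where 5.68% and 2.56% of all protein-coding genes had one. The nearest lay between 7417 and 115505 bp away, with a median of 19070 bp, against 32071 bp over protein-coding genes. Each class holds few genes, so no trait of a class is read from these counts and medians. gt, a gap gene for a basic leucine zipper repressor, was the closest to one. The summit shown above lay 7417 bp to its left with a signal of 1638, with 714 in replicate 1 and 943 in replicate 3. A second lay 15046 bp to its right at the TSS of tko, with a signal of 2262, and 1034 in replicate 1 and 1225 in replicate 3. Both held the match, and both were high in both libraries. They leave 24317 bp between them, which hold gt, CG32797 and tko and 2 candidates, none inside gt.

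Other gap genes lay farther from the summits. The strongest summit beside any of the 31 genes was left of tll, the gap gene for a nuclear receptor of the embryo's ends, 43796 bp away at the TSS of cindr. Its signal was 2879, with 1377 in replicate 1 and 1514 in replicate 3. To the right of tll, 16285 bp away, lay an intergenic summit of 895, with 414 in replicate 1 and 477 in replicate 3. Both summits of tll held the match. hb, a zinc-finger gap gene, had summits of 1665 on its left, 30490 bp away at bel, and 2129 on its right, 122983 bp away, again both with the match.

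For Kr, a zinc-finger gap gene, the nearest lay 21854 bp to the right at CG30428, with a signal of 1716. For kni, which encodes a nuclear-receptor-like factor, it lay 16276 bp to the right with 463. hkb, a zinc-finger gap gene of the embryo's ends, was among the 3 genes farthest from a summit, with 192 at 115505 bp on its left. Distance and signal both varied widely within this class.

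The pair-rule genes act in stripes, and 1 of the 8 had a reproducible summit within 10 kb. Of all protein-coding genes, 25.3% had one inside or that near. The nearest summits of the 8 lay between 6477 and 58344 bp away, with a median of 34767 bp. The gene within 10 kb was eve, a homeodomain repressor whose stripes are made by separate enhancers on both sides of the gene. The interval of eve measured 16215 bp, the shortest of the 31. Among all protein-coding genes, 2.02% had an interval up to that length.

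The left summit of eve lay 6477 bp away, at position 9972842 of chromosome arm 2R, and the right one 8262 bp away at position 9989057. The left one had a signal of 662, with 324 in replicate 1 and 340 in replicate 3, and no match. The right one had a signal of 1711, with 792 in replicate 1 and 922 in replicate 3, and held the match 21 bp from the summit. The left summit was 90 bp from the TSS of an antisense RNA, asRNA:CR46453, and the right one 102 bp from that of TER94, which encodes an AAA ATPase. Beyond the left one, 8180 bp from eve at CG12134, lay a further summit of 872, and it held the match. Between the flanking summits lay 4 candidates and no coding gene besides eve. Insulators named nhomie and homie are known to flank eve, but they are not in the gene models used, so the summits were not assigned to them.

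The remaining pair-rule genes had weaker or more distant flanks. h, a basic helix-loop-helix repressor, had summits of 298 and 536, the nearer 23675 bp away, neither with a match. slp1 and slp2, neighbouring forkhead genes, shared a left summit of 146 at Reph and a right summit of 173. The left one was a shoulder of a summit of 300 and the weakest beside any of the genes, close to the lowest reproducible signal of 143.9. The nearest for the Runt-domain gene run was 265 at 58344 bp, for the zinc-finger gene odd 834 at 50737 bp, and for the paired-domain gene prd 184 at 47789 bp.

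opa, a zinc-finger pair-rule gene that acts across the trunk, had a strong flank and the strongest candidate inside a gene below the reproducible list. The flank, 36018 bp to its right and intergenic, had a signal of 2707, with 1298 in replicate 1 and 1422 in replicate 3, and held the match. The candidate lay in an intron at position 4866018 of 3R with a signal of 114.8, at rank 1465 of 30000. It had 48.7 in replicate 1 and 55.4 in replicate 3 and held the match. It was thus found in both libraries, and the weakest reproducible summit in the list has 143.9.

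**Figure D4:**
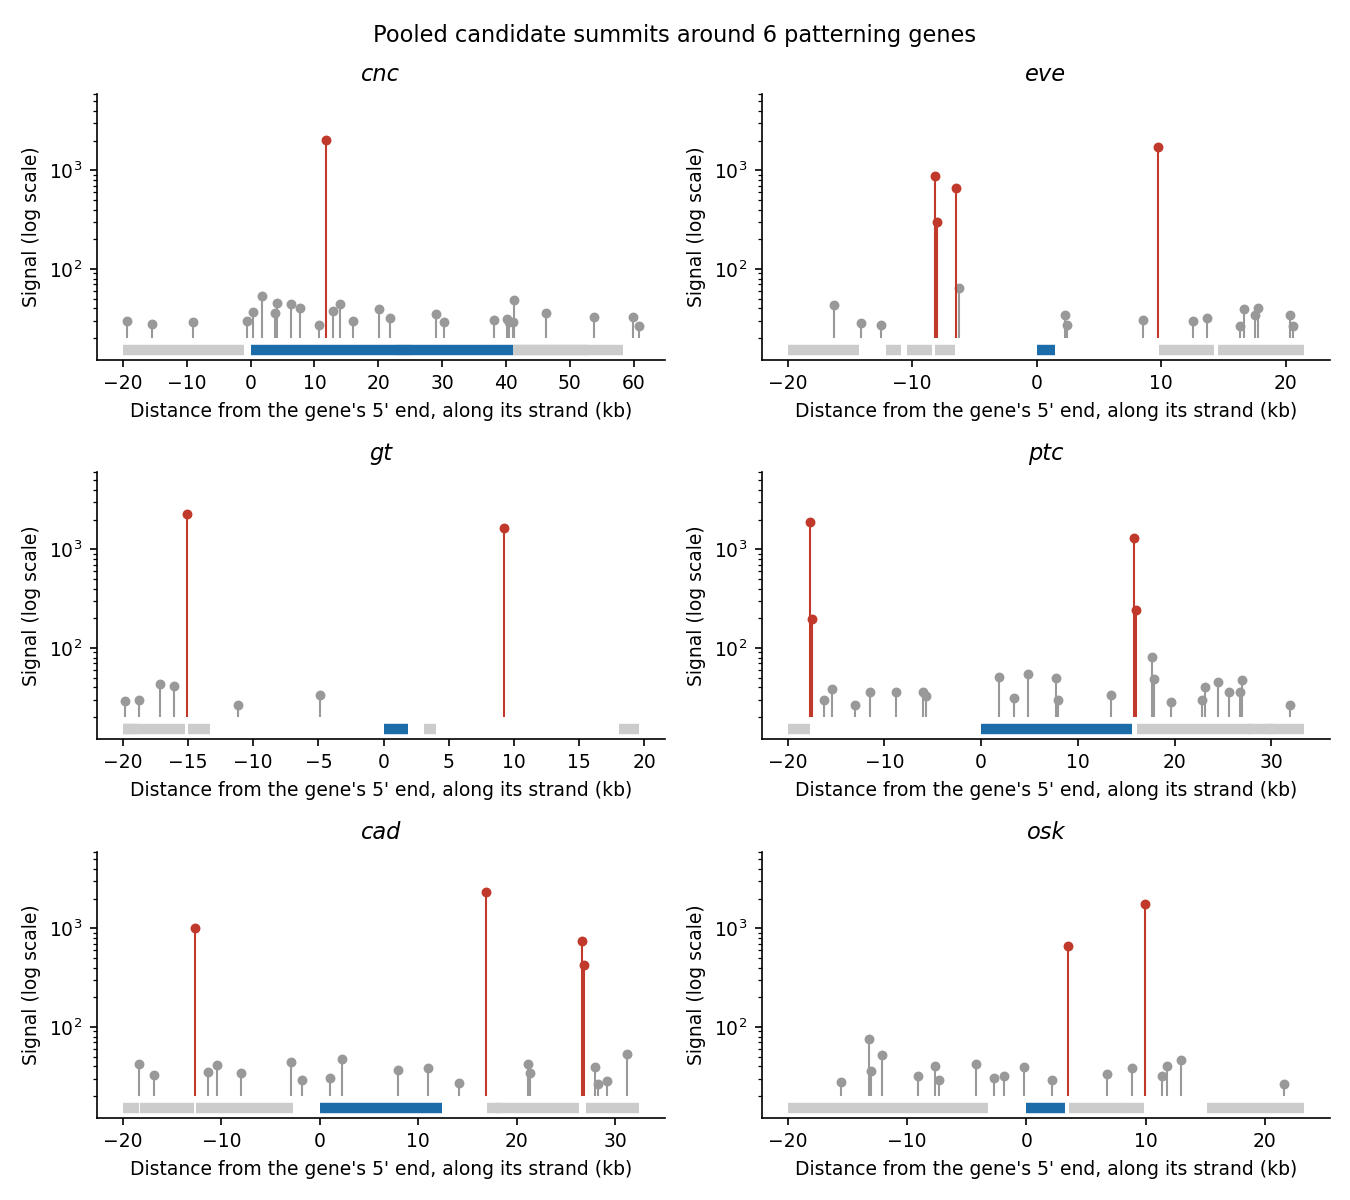
Candidate summits around cnc, eve, gt, ptc, cad and osk, by distance in kb from the gene's 5′ end along its own strand (horizontal) and signal on a log scale (vertical); red marks reproducible summits, grey other candidates, the blue bar the gene and grey bars other genes. cnc has 1 red summit inside at 2009, and the other 5 genes have red summits outside only.

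The segment polarity genes hold the signals that fix segment borders. Of the 5, ptc alone had a reproducible summit within 10 kb, while 25.3% of all protein-coding genes had one inside or that near. The nearest lay between 226 and 53961 bp away, with a median of 25517 bp. ptc encodes the receptor for Hedgehog. Its right summit lay 226 bp past the 3′ end of the gene, at position 8665449 of 2R and 364 bp from the TSS of Acsl, with a signal of 1316. Replicate 1 had 565 and replicate 3 had 751, and the summit held the match. A shoulder of 245 lay at Acsl too.

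The left summit of ptc lay 17448 bp away with 197, a shoulder of a summit of 1893 at CG8635. The stronger one had 918 in replicate 1 and 974 in replicate 3 and held the match. The interval of ptc measured 33248 bp, with ptc the sole coding gene wholly inside. The 6 candidates inside ptc reached 55.1 at most. Summits of over 1000 lay outside both ends of ptc, and weak candidates between them.

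hh, the gene for the Hedgehog signal, lay 16058 bp from a summit of 1331 at unk on its right, with 588 in replicate 1 and 719 in replicate 3. Its left summit was 333999 bp away. wg, the gene for a Wnt signal, had an intergenic summit of 1955 on its left at 25517 bp and one of 2148 on its right at 72025 bp, at CG5149 and gudu. The left one had 911 in replicate 1 and 1048 in replicate 3, and the right one had 1103 in replicate 1 and 1040 in replicate 3. Both held the match. Its interval held wg and 2 more Wnt genes, Wnt6 and Wnt10, with CG5149 and ninaC.

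The neighbouring homeodomain genes en and inv shared their flanks, an intergenic summit of 421 on the left and one of 172 at tou on the right. The left one had 187 in replicate 1 and 194 in replicate 3, and neither held the match. The interval of 146440 bp held inv and en with 3 others, qvr, E(Pc) and Prip. No reproducible summit lay between en and inv.

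The 7 maternal and dorsoventral genes included 3 of the 8 genes with a summit inside or within 10 kb, a place where 25.3% of all protein-coding genes had one. The nearest summits of the 7 lay between 253 and 105831 bp away, with a median of 22918 bp. The homeodomain gene cad, whose protein forms a posterior gradient, had summits on both sides. The right one, shown above, lay 4418 bp away at Pomp with a signal of 2341, with 1106 in replicate 1 and 1245 in replicate 3. The left one lay 12687 bp away between Rhau and dia with 1006, with 425 in replicate 1 and 564 in replicate 3. Both held the match, and the interval of 29509 bp held cad and dia as its coding genes.

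osk encodes the protein that builds the germ plasm at the posterior pole. A reproducible summit lay 253 bp past its 3′ end, 76 bp from the TSS of ScsbetaA, with a signal of 657. It had 341 in replicate 1 and 316 in replicate 3. The next, 6687 bp from osk at CG11964, had a signal of 1769. On the left the nearest lay 71744 bp away at pyd, with 271. A candidate of 38.9 at the TSS of osk was below the reproducible list.

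sog, the gene for an extracellular inhibitor of BMP signals, had intergenic summits on both sides, 8574 bp to the left with 378 and 20252 bp to the right with 515. The left one had 144 in replicate 1 and 235 in replicate 3, and the right one 229 in replicate 1 and 285 in replicate 3. Neither held the match and neither was at a TSS. dpp, the gene for the BMP signal itself, lay 47231 bp from its nearest, a shoulder of 162 at Eogt beside a summit of 775. dl, the gene for the dorsoventral Rel factor, lay 22918 bp from one of 796 at BicD and Sgt.

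nos and tor were far from summits. nos, which encodes a translational repressor of the posterior, had its nearest 60496 bp to the left, and its right one lay 898941 bp away. Its interval of 962401 bp was the longest of the 31 and held 104 coding genes. tor, the receptor that patterns both ends of the embryo, was among the 3 farthest, with 219 at 105831 bp on its right.

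Among the head and trunk genes, cnc was the one with a summit inside. btd, a zinc-finger head gap gene, had the summit shown above 6236 bp to its left, at lncRNA:CR42657, with a signal of 2118. Replicate 1 had 936 and replicate 3 had 1173. A shoulder 201 bp closer to btd had 189, with 22.7 in replicate 1 and 117 in replicate 3, and no match. On the right the nearest lay 388870 bp away.

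oc, a homeodomain head gene also called orthodenticle, was the only coding gene of an interval of 70295 bp. On the right, 26295 bp away at Rubicon, lay a summit of 2818, with 1300 in replicate 1 and 1521 in replicate 3, and it held the match. On the left, 23478 bp away, lay a shoulder of 310 beside a summit of 1696. ems, a homeodomain head gene, had its nearest at 67942 bp, a shoulder of 351 beside a summit of 887. tsh, a zinc-finger gene of the trunk, was the farthest of all, at 144742 bp from a shoulder of 301 beside a summit of 891.

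The candidates below the reproducible list gave a different count. A candidate lay inside 25 of the 31 genes (80.6%), against 53.7% of protein-coding genes. Among the 10000 strongest candidates the count was 12 of 31 (38.7%), against 28.3%. Patterning genes were longer, with a median length of 4205 bp, against 2165 bp. Pooled over the set, they held 3.45 candidates per 10 kb of gene, against 2.50 over all protein-coding genes, and 0.0323 reproducible summits, against 0.0489. The candidates were spread unevenly, with 19 of the 107 inside cnc and 12 inside inv. At the TSS the count was lower, with a candidate within 500 bp at 6 of the 31 (19.4%), against 27.4%. It was 3 with a window of 200 bp, 12 with 1000 bp and 10 with whole peak intervals. No share of all genes is set beside these 3 counts, so they cannot be placed against the background. The genes with none inside were gt, tll, eve, odd, slp1 and btd.

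Of the candidates inside the genes, 106 were not reproducible. Their signals ran between 26.3 and 114.8 with a median of 34.6, against 34.1 for all 28662 candidates outside the reproducible list. In both replicates 22 were found (20.8%), against 18.8%. The match was present at 8 (7.55%), against 7.39%. By place, 69 lay in introns, 18 in coding exons, 13 in 3′ UTRs and 5 in 5′ UTRs. On signal, replication and sequence, these were close to candidates elsewhere, which include background regions.

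**Figure D5:**
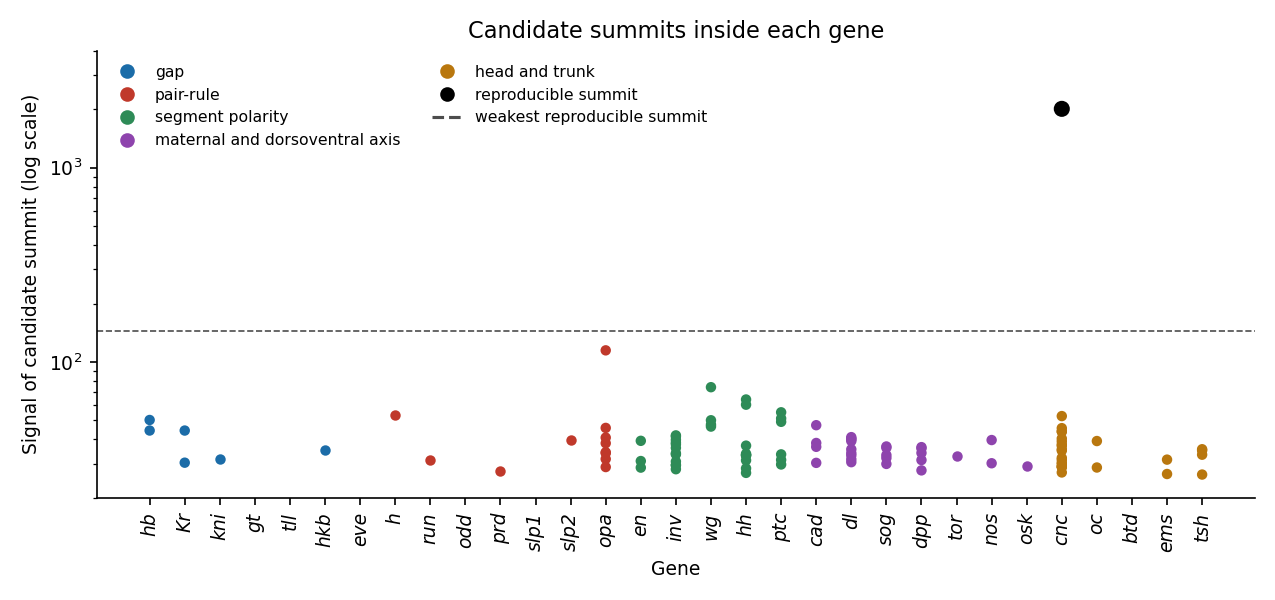
Signal of every candidate inside each of the 31 genes, on a log scale, with genes ordered and coloured by role; the black point is the reproducible summit in cnc and the dashed line the weakest reproducible signal of 143.9. All candidates besides the one in cnc lie below the line, the highest at 114.8 in opa.

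After opa, the strongest candidates inside genes without a near reproducible summit were those of wg, hh, h and hb. wg had 74.2 in its 3′ UTR, with 26.3 in replicate 1 and 37.1 in replicate 3. hh had 64.1 in an intron, with 21.8 in replicate 1 and 35.0 in replicate 3. h had 53.3 and hb 50.3, both in the 3′ UTR and each found in replicate 3 alone. At TSSs, hb had 44.4, inv 41.9, dl 40.3 and prd 28.7, all less than the weakest reproducible summit.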

How the data were processed

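Peaks of Pita ChIP-seq were taken from 2 libraries of 1 group. The signal of each peak is the deposited value of the authors, on dm6, and per the deposited notes candidates were called against a control and the reproducible list derived from both replicates and the pool. The sources used here give no name of an aligner or caller and no IDR cutoff. Lists on dm3 were not used. Genes came from Ensembl release 115 and sequences from RefSeq of the same assembly, and h and nos are listed there as hry and nanos. The 31 genes, their roles and the other lists were chosen with earlier results of these data known. Full values follow a rule: genes with a reproducible summit at a TSS or inside, genes with one within 10 kb, then the 5 strongest candidates inside and at TSSs among the rest, and the 3 farthest genes. Only 4 of the rest had a candidate at a TSS. Values of other genes are added to account for all 31, and the windows other than that of cnc were added after values were seen.

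A summit was matched between lists within 100 bp. The matrix was learned in 8 rounds on summits away from the patterning genes, leaving out also their nearest summits, which is stricter than first planned. On simulated data it found 499 of 500 planted sites and 32 of 500 windows without one. Alternatives were a stricter list, shoulder summits dropped, each replicate alone, other windows and whole peak intervals. The counts over 20 kb and of intervals with 1 coding gene, and the alternatives of these and of the 10 kb count, were added after seeing the data. Python 3.11.15, NumPy 2.4.6, pandas 2.3.3 and matplotlib 3.10.9 were used.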

Additional observations from a re-analysis of the deposited data

How the results depend on the processing

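Of 56 alternatives, 45 left a count within 1.5 times that reported, or a median within 1 SD of the values from each replicate alone, and 11 moved it further. That SD was taken from values that it then judged, so for medians the split says little. Within that tolerance, candidates at a TSS were 9 without replicate 3 and 4 among the 10000 strongest, and matches were 38 of 59 within 100 bp. With a promoter window of 200 bp, 0 of the 31 genes had a reproducible summit at a TSS, 3 had a candidate there and 1 of 54 other patterning genes had a reproducible summit. With 1000 bp, 12 of the 31 had a candidate at a TSS, and with whole peak intervals 10. No share of all genes is set beside the counts at these other windows, so they cannot be placed against the background. Among the 10000 strongest candidates, 12 genes held one inside. In the stronger part of the reproducible list the median distance was 36018 bp, the median interval 235465.5 bp and the count of other patterning genes 2, and osk was no longer the only coding gene of its interval. Leaving out each replicate in turn gave median distances between 23478 and 23674 bp and median intervals between 128193 and 142428 bp. By construction, the stricter lists hold fewer summits, the promoter windows are shorter or longer, and whole peak intervals reach beyond the summit. The cause of the moves, also for single replicates, was not tested. eve, gt, ptc and cad had summits within 20 kb on both sides under every list tried. All those lists came from the same 2 libraries, so this was largely set in advance and lends the count no separate support. No paired analysis was possible because there is only 1 group. Depth is unknown and no interval could be set on a signal.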

Other observations

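A further list of 54 genes of the same pathways gave 4 with a reproducible summit at a TSS, at up to 500 bp (7.41%), while 5.68% of all protein-coding genes had one. bcd, the maternal gene for the anterior morphogen, had a summit with a signal of 481.9 at 223 bp from its TSS. cic, which encodes a repressor relieved by Torso signalling, had one 166 bp away with 1065. Stat92E, the transcription factor of the JAK/STAT pathway, had one 459 bp away with 335.4, inside an intron. pan, the transcription factor of the Wg pathway, had 4 within 500 bp of its TSSs, with signals of 1788, 1383, 296.3 and 179.6, of which those of 1383 and 179.6 were shoulders. Reproducible summits also lay inside 3 of the 54 (5.56%), against 2.56% of all protein-coding genes, namely Stat92E, pan and pum, the last a partner of nos in translational repression, whose strongest was 1177 in an intron. A candidate lay at the TSS of 18 of the 54 (33.3%), against 27.4%. The median distance to the nearest reproducible summit was 18298 bp, against 32071 bp over all protein-coding genes, and 20 of the 54 had one inside or within 10 kb (37.0%), against 25.3%.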
